A study of Mus musculus with 9 samples.

Results

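The 368 stretches of mouse genome described here are 100 bp tiles, starting at multiples of 100, that were highly methylated in tail-tip fibroblasts and low on average in embryos made from such cells by nuclear transfer. They were chosen by a mean sample methylation under 20% over 4 nuclear transfer samples and of 80% or more over 4 fibroblast samples, on autosomes, with at least 10 calls in each of the 8 samples. A call is one read of one CpG as methylated or unmethylated, and the level of a tile is the percentage of methylated calls. Tiles were tested with a quasi-binomial model of calls with limma-moderated dispersion and Benjamini-Hochberg adjustment over every tested tile, called the tile model. The 368 tiles were 0.139% of the 265671 autosomal tiles with that depth, out of 279699 with the X chromosome included, and 0.365% of the 100758 autosomal tiles at 80% or more in fibroblasts. The working description of these tiles was near-complete erasure. In single samples the data did not bear this out for most of them, since 50 of the 368 were under 20% in every nuclear transfer sample, so they are named by their rule and called low-NT tiles.

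The study set nuclear transfer beside fertilization as routes by which DNA methylation is changed in the mouse egg, and the comparison here addresses where the methylation of a somatic nucleus was lowest after transfer. The nuclear transfer (NT) embryos, labelled NTZy14, were made by placing a nucleus from a cultured tail-tip fibroblast into an enucleated C57/B6 oocyte, activating the egg with a strontium salt and cytochalasin B, culturing it in KSOM and removing the zona. The fibroblasts, labelled TT, came from adult male mice and were grown to confluence in serum. In each stage 2 samples had the strain label BDF1-CAST and 2 the label X1, and the oocytes of NT samples of either label were C57/B6. In NT embryos, samples 1 and 2 were BDF1-CAST and samples 3 and 4 were X1, and the fibroblast samples bore the same numbers. What X1 and the digits in NTZy14 stand for, how many embryos a library held, and whether samples are separate animals or cultures, the labels do not say.

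Methylation of cytosine in CpG dinucleotides is copied to the new strand after replication by the maintenance enzyme Dnmt1, and is lost when copying fails over successive divisions or when the oxidation enzyme Tet3, which the egg supplies, converts it to hydroxymethylcytosine and further forms. After fertilization in the mouse much of the sperm-derived methylation is lost within the first cell cycle, while imprinted regions and some repeats keep theirs. Bisulfite sequencing reads methylcytosine and hydroxymethylcytosine alike as methylated. Reduced representation bisulfite sequencing (RRBS) reads the ends of fragments cut by MspI at CCGG, so it covers CpG-rich sequence deeply and leaves gaps between fragments.

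The NT libraries held 25239364 to 30396273 calls and the fibroblast libraries 35442175 to 41466097, with fibroblast sample 1 summed from 2 libraries to 80142240 calls. The median number of calls per low-NT tile was 31, 31, 30.5 and 25 in NT samples 1 to 4, and 123.5, 55, 52 and 57 in fibroblast samples 1 to 4. Over all tested tiles these medians were 38 to 47 in NT samples and 59 to 131 in fibroblast samples, so the low-NT tiles were read less deeply than the typical tested tile in both stages. Other tiles at 80% or more in fibroblasts differed from this. Those at 20 to 80% in NT embryos had medians of 32, 31, 40 and 28 in NT samples and 79, 46, 43 and 31 in fibroblast samples. Those at 80% or more in both stages had 37, 36, 44 and 32, and 88, 50, 48 and 47. Beside these 2 classes the low-NT tiles were read more deeply in fibroblasts and no more deeply in NT samples. A count of 0 in 10 calls allows a level of up to 30%, in 15 calls up to 20% and in 100 calls up to 3%, and a level of 50% at 30 calls has a 95% Wilson interval of 33.2 to 66.8%. No molecular identifiers are described and CpGs of a tile share reads, so these limits cover counting error only.

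The low-NT tiles were not uniformly low in NT embryos. Their median level was 6.67% in NT sample 1 (lowest 0%, highest 77.8%), 12.8% in NT sample 2 (0 to 78.0%), 6.46% in NT sample 3 (0 to 73.2%) and 0% in NT sample 4 (0 to 73.5%). In fibroblasts the medians were 87.2% in sample 1 (61.4 to 100%), 85.3% in sample 2 (54.5 to 100%), 89.5% in sample 3 (49.7 to 100%) and 89.5% in sample 4 (60 to 100%). All 4 NT samples thus had a low median with a long upper tail, while fibroblast levels stayed in a narrow high band. The mean over the NT samples had a median of 15.1% across tiles, against 86.4% over the fibroblast samples, and the differences ran from -92.1 to -61.0 points with a median of -72.3 points. Since the rule used these levels, they are given as a description and carry no test. By the same token the 349 low-NT tiles called lower between the stages, where 4.41% of all tested tiles were called lower, follow from the choice and nothing is read from them.

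**Figure D1:**
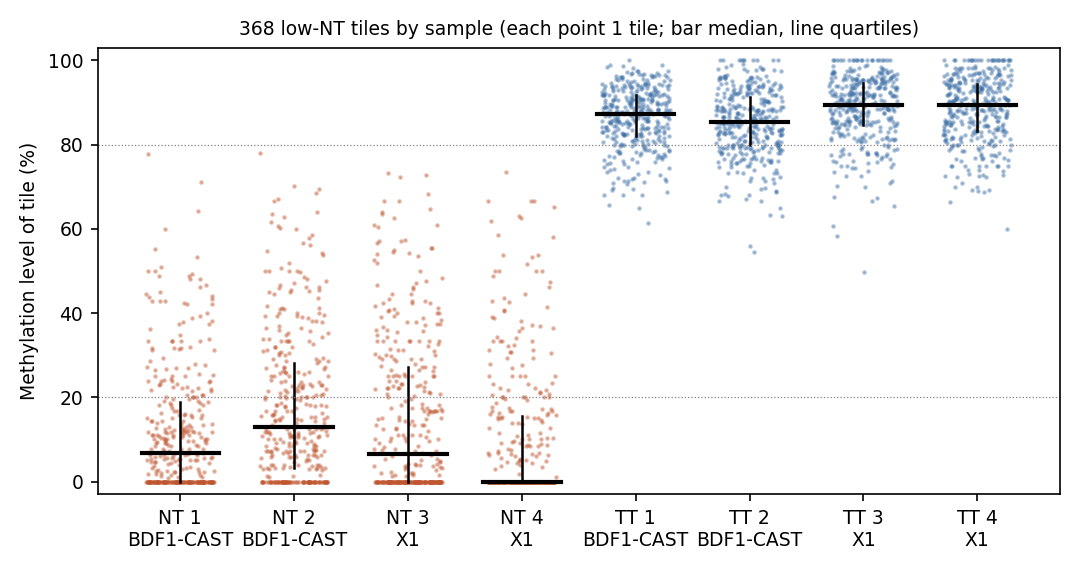
Methylation level in percent (y axis) of the 368 low-NT tiles in each of the 4 NT samples and the 4 fibroblast (TT) samples (x axis), with each point 1 tile, the bar the median and the vertical line the quartiles. NT medians lie between 0 and 12.8% with tiles reaching 73.2 to 78.0%, fibroblast medians lie between 85.3 and 89.5%, and dotted lines mark the bounds of 20 and 80%, which apply to stage means.

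Zero was the most common reading in NT embryos. A level of 0% was seen in 130, 82, 155 and 216 of the 368 tiles in NT samples 1 to 4, which makes 583 of 1472 values or 39.6%, and 142 of these 583 rested on fewer than 15 calls. At the other end, 9, 26, 27 and 18 tiles stood at 50% or more in NT samples 1 to 4. These 80 were different tiles, as the rule fixes, since a mean under 20% over 4 NT samples allows no more than 1 at 50% or more. All 4 NT samples were under 20% in 50 tiles (13.6%), 3 of them in 207, 2 in 106 and 1 in 5. All 4 were at 0% in 4 tiles. Each fibroblast sample was at 80% or more in 180 tiles, and 29 tiles met both bounds in every sample. The spread between samples was accordingly wide: the median SD was 16.7 points in NT embryos and 5.99 points in fibroblasts, against 11.5 and 5.15 points at tiles of 20 to 80% in NT embryos and 6.79 and 4.45 points at tiles of 80% or more in both stages.

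Low methylation recurred in samples that had not chosen the tiles, but in a minority of them. When the same bounds were applied to the BDF1-CAST samples alone, 1149 tiles were chosen, and in the X1 samples their NT level had a median of 50% (quartiles 31.8 and 70%), with 13.1% of them under 20% and 14.7% at 80% or more. Among all 91431 tiles at 80% or more in the fibroblasts of X1, the median NT level was 81.25%, with 1.11% under 20% and 54.9% at 80% or more. When the X1 samples chose, giving 1000 tiles, the BDF1-CAST median in NT embryos was 41.8% (25 and 60.5%), with 18.4% under 20% and 6.50% at 80% or more. The background of 105643 tiles had a median of 73.3%, with 1.52% under 20% and 28.0% at 80% or more. In both directions the tiles of one strain were lower in the other strain than the general run of methylated tiles, and in both most of them were not under 20% there. Only 105 tiles met the bounds in both strains separately.

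Leaving out 1 NT sample at a time gave the same picture. Among tiles with 10 calls in all 8 samples, with all fibroblast samples and 3 NT samples choosing, 481, 588, 739 and 517 tiles were under 20% on average when NT sample 1, 2, 3 or 4 was left out. In the sample left out their median level was 33.3% for NT sample 1, 39.2% for sample 2, 52.9% for sample 3 and 41.7% for sample 4. The share under 20% there was 37.0, 26.7, 20.6 and 34.04%, against 3.31, 2.21, 1.78 and 3.04% of all tiles at 80% or more in fibroblasts. The share at 80% or more was 12.3, 9.86, 24.9 and 21.5%, against 36.2, 33.8, 60.4 and 54.6% of those same background tiles. The levels in the left-out sample thus spread over the whole scale, with a peak near 0 in each of the 4 and a further peak near 100% in the 2 X1 samples. That further peak was below the background: 16.5 and 16.2% of the chosen tiles were at 90 to 100% in NT samples 3 and 4. Of all tiles at 80% or more in fibroblasts, 25.5 and 25.1% were. These held-out values are descriptions without a test, and the choice shares its fibroblast samples with the background.

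**Figure D2:**
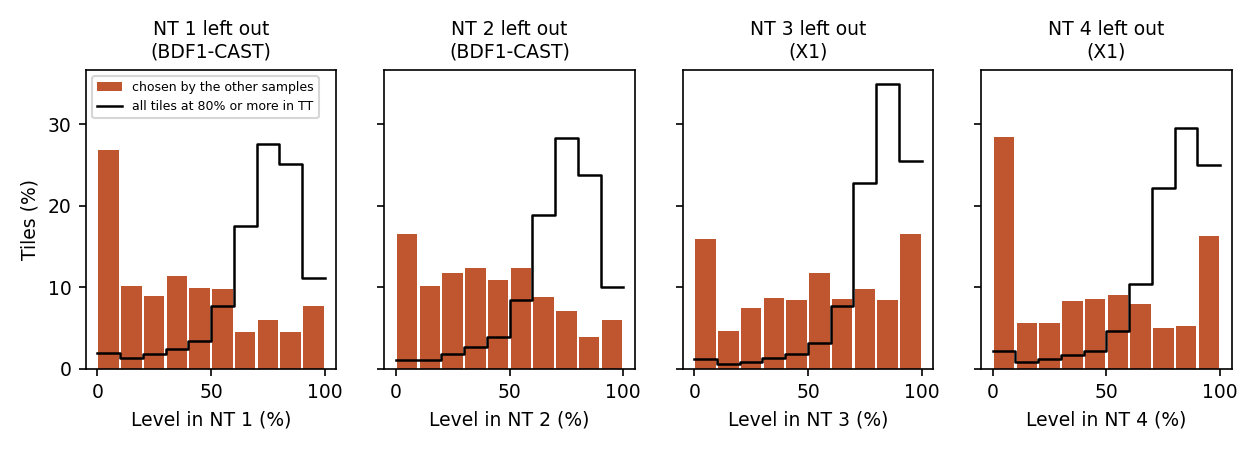
Level in percent (x axis, bins of 10 points) in the NT sample that did not choose the tiles, for tiles under 20% on average in the other 3 NT samples (bars), beside all autosomal tiles at 80% or more in fibroblasts (line), each as a percentage of its tiles (y axis), with 1 panel per left-out NT sample. The bars spread over the whole scale and 20.6 to 37.0% of the chosen tiles are under 20%, while 1.78 to 3.31% of all such tiles are.

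Depth moved with membership. The share of tiles at 80% or more in fibroblasts that were low-NT tiles was 0.859% (95% Wilson interval 0.743 to 0.992%) where the shallowest sample had 10 to 14 calls, 0.339% (0.272 to 0.423%) at 15 to 19 calls, 0.208% (0.163 to 0.264%) at 20 to 29 calls and 0.166% (0.122 to 0.225%) at 30 calls or more. Thus 183 of the 368 tiles were in the shallowest of these classes and 41 in the deepest. A minimum of 20 calls left 107 of the 368, or 0.190% of 56449 tiles, and a minimum of 5 calls gave 808, or 0.628% of 128609. The part of counting error in membership was not tested.

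The levels of the low-NT tiles were set beside the strain labels. The median NT level of a tile was 13.3% in BDF1-CAST and 11.8% in X1, and 200 tiles were higher in BDF1-CAST, 164 higher in X1 and 4 equal, values that the rule used as part of the NT mean. In fibroblasts the medians were 86.1% in BDF1-CAST and 89.2% in X1. Tiles at 20 to 80% in NT embryos had NT medians of 68.6% in BDF1-CAST and 76.3% in X1. In the tile model 0 low-NT tiles were called between the strains, against a background of 0.03%, or 84 of 279699 tiles. The smallest adjusted p was 0.161. At an unadjusted p under 0.05 there were 36 low-NT tiles (9.78%), against 15.8% of all tiles, and limma applied to arcsine-transformed levels gave 0 calls, with 29 unadjusted. For the product of stage and strain, which asks whether the change differs between the strain labels, 0 low-NT tiles were called, against a background of 0%, with a smallest adjusted p of 0.261. Unadjusted, 88 low-NT tiles (23.9%) were under 0.05, against 8.68% of all tiles, and limma called 0, with 66 unadjusted. A count of 0 is thus at or near the background in both tests, and with 2 samples per strain and stage it is no sign of equal change in the strains. The rule bounds both stage means of the low-NT tiles, which limits how far their strains can differ. The background tiles have no such limit. The unadjusted share was below the background for strain and above it for the product of stage and strain. What sets these shares was not tested, and nothing is read from either. No source says that samples are separate animals, so each p rests on the spread of these 8 samples alone, part of which may be technical.

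Deeply read low-NT tiles show what a large loss looked like. Of the 32 low-NT tiles with at least 3 CpGs of 5 or more calls and 20 or more calls in every sample, the largest fall was on chromosome 11 at 120782000 to 120782099 (build mm9, 4 CpGs). Its level was 0, 16.3, 0 and 0% in NT samples 1 to 4, on 54, 92, 48 and 36 calls, against 97.0, 95.3, 94.6 and 90.8% in fibroblast samples 1 to 4. Only NT sample 2 held any methylated call, 15 of 92 (95% Wilson interval 10.1 to 25.2%), and the other 3 NT samples allow levels of up to 5.56, 6.25 and 8.33%. In NT sample 2 the methylated calls sat mainly on the middle CpGs, at 30.4% at position 120782068 and 31.8% at 120782072, against 0% at 120782056 and 4.17% at 120782080.

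On chromosome 7, tile 52301400 to 52301499 held 5 CpGs, and its NT levels were 0.763, 1.12, 5.00 and 0% and the fibroblast levels 89.4, 88.8, 91.8 and 96.4%. This was the lowest and most even of the 10 largest falls, with NT samples read at 131, 89, 60 and 23 calls. Its 3 CpGs with enough calls averaged 1.47 to 2.59% over the NT samples. A further low-NT tile lay 400 bp away at 52301800, where the single CpG was at 5.56, 7.14, 0 and 0% in NT samples and 76.7, 80.3, 75 and 95.7% in fibroblast samples. The tile between them at 52301700 was at 5.00% ± 10.0 in NT embryos and 70.7% ± 13.4 in fibroblasts (SD, n = 4 each), below the fibroblast bound of the rule, and was called lower (tile model with limma-moderated dispersion: adjusted p = 0.0290). The next tested tile, at 52302200, was at 46.1% ± 13.2 in NT embryos and 68.4% ± 4.68 in fibroblasts and was not called (adjusted p = 0.105). Low methylation here spanned 3 tested tiles over 500 bp and was less deep beyond them.

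The other deeply read tiles were less even. On chromosome 16 at 93591100 the NT levels were 0, 11.4, 21.3 and 0%, against 95.02, 91.3, 86.8 and 98.2% in fibroblasts. On chromosome 8 at 73985700 they were 23.9, 13.9, 0 and 0%, against 86.2, 82.8, 88.9 and 93.6%. On chromosome 9 at 21164100 they were 5.22, 15.8, 0 and 0%, against 87.9, 88.0, 84.7 and 90.3%. In each of these 3 tiles NT sample 4 was at 0% and at least 1 other NT sample was above 15%. On chromosome 12 at 77053900 the order differed, with 9.27, 3.66, 0 and 16.2% in NT samples and 89.9, 69.6, 95.3 and 89.5% in fibroblast samples. All 10 of the largest falls among the deeply read tiles had at least 1 NT sample at 0%, and NT sample 4 was at 0% in all of them except that on chromosome 12.

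The tile on chromosome 10 at 79750900 was low in 3 NT samples and intermediate in the other. NT sample 2 was at 56.25% on 48 calls (95% Wilson interval 42.3 to 69.3%), while samples 1, 3 and 4 were at 1.45, 0 and 0% on 138, 48 and 209 calls, against 96.1, 98.0, 95.5 and 96.5% in fibroblast samples. In NT sample 2 all 4 CpGs were between 50 and 58.3%, and the CpG just before the tile, at 79750898, was at 58.3% there as well. That CpG was at 50% in NT sample 1 and 0% in samples 3 and 4. The tile on chromosome 7 at 134158900 was low in steps, at 22.2, 20.6, 15 and 0% in NT samples, and its CpG at 134158951 stood at 85.7% in NT sample 1 while the other CpGs there were at 0%.

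The remaining named falls were on chromosome 3 at 136345000, with 9.52, 28.6, 1.33 and 0% in NT samples against 93.9, 93.4, 96.6 and 100% in fibroblast samples, and on chromosome 2 at 32072700. At that on chromosome 2 the NT samples were at 4.03, 1.30, 16.8 and 0% and the fibroblast samples at 77.5, 78.7, 92.0 and 92.9%. Its 4 CpGs did not move alike in NT sample 3, where the first, at 32072731, was at 100%, the second at 23.3% and the last 2 at 0%. Genes at these positions were not analysed here, because the reference tables at hand are of another genome build.

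Tiles nearest to the bounds of the rule were named on either side, a choice that by itself makes their means alike. Just inside the NT bound lay tile 106735000 on chromosome 4, at a mean of 19.98% in NT embryos with 27.9, 52.0, 0 and 0% in the 4 samples, and tile 98362100 on chromosome 15, at 19.96% with 6.25, 48.6, 0 and 25%. Just outside it lay tiles 123374100 on chromosome 1 and 129140000 on chromosome 4, both at 20%, with 0, 13.3, 66.7 and 0% and with 10.0, 70, 0 and 0%. At the fibroblast bound, tile 55263000 on chromosome 13 stood just inside at 80.01%, and tile 94976800 on chromosome 3 and tile 78544500 on chromosome 15 stood just outside at 79.997 and 79.97%. A further tile just inside it, at 80.1%, lay on chromosome 18. In each of these tiles 1 NT sample stood at 48.6% or more, except that on chromosome 3, where the highest NT samples were sample 2 at 27.5% and sample 4 at 22.9%.

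The largest differences between strain labels within the low-NT tiles rested on few samples as well. In tile 106735000 on chromosome 4 both BDF1-CAST samples held methylation and both X1 samples were at 0% on 58 and 30 calls. Tile 72002500 on chromosome 6 had the opposite pattern, at 0 and 0% in the BDF1-CAST samples on 11 and 10 calls and at 39.0 and 40.5% in the X1 samples. Neither was called between strains (tile model with limma-moderated dispersion: adjusted p = 0.270 and 0.424). The third, tile 114392500 on chromosome 5, was at 78.0% in NT sample 2 alone (39 of 50 calls, 95% Wilson interval 64.8 to 87.2%) and at 0% in the other 3 NT samples, so it differed between samples of one strain label rather than between labels. These 3 tiles were picked for their difference, which is a description.

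Low-NT tiles made up the highest share of methylated tiles at a middle CpG density. Density is the authors' value for a tile, which counts the CpGs found within 50 bp of each CpG and averages over the tile. The median density was 3 at low-NT tiles, against 2 at tiles of 20 to 80% in NT embryos, 4 at tiles of 80% or more in both stages and 4 over all tested autosomal tiles. Density between 3 and under 6 was found in 190 low-NT tiles (51.6%), against 26.5% and 43.4% of these other methylated classes. By density, the share of tiles at 80% or more in fibroblasts that were low-NT tiles was 0.250% at 1 to under 2, 0.281% at 2 to under 3, 0.830% at 3 to under 4 (95% Wilson interval 0.683 to 1.01%), 0.573% at 4 to under 5, 0.314% at 5 to under 6, 0.247% at 6 to under 8 and 0.238% at 8 and over. The interval at 3 to under 4 overlapped only that of 4 to under 5 (0.440 to 0.747%). The peak was also there at 20 calls or more in every sample, a subset looked at after the data had been seen, with 0.725% (36 of 4965 tiles) at 3 to under 4, against 0.0504% (5 of 9924) at 1 to under 2 and 0.105% (11 of 10433) at 6 to under 8.

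**Figure D3:**
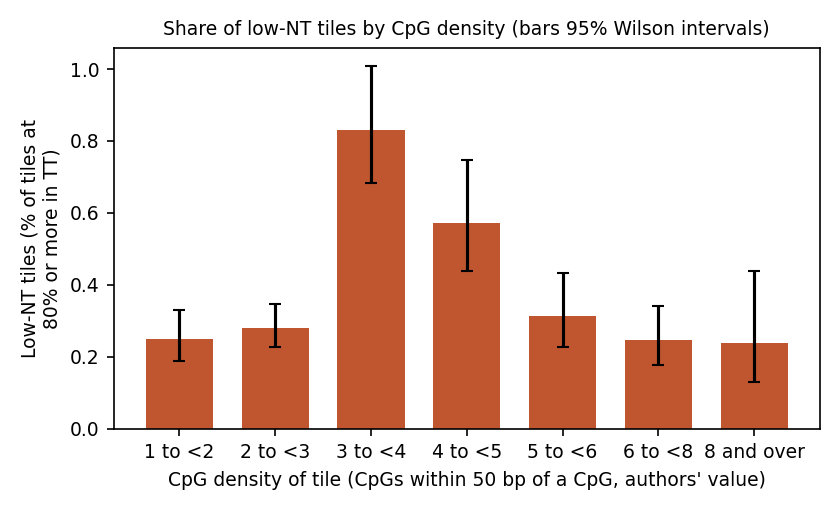
Share of autosomal tiles at 80% or more in fibroblasts that were low-NT tiles (y axis, percent) by the authors' CpG density of the tile (x axis), with 95% Wilson intervals that cover counting error only. The share is 0.830% at a density of 3 to under 4 and 0.573% at 4 to under 5, against 0.238 to 0.314% in the other classes.

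In number of CpGs, low-NT tiles held a median of 2 (quartiles 1 and 4), against 1 and 2 in the other methylated classes and 3 over all tested tiles. Tiles of a single CpG made up 25.5% of the low-NT tiles (94), against 53.4% of tiles at 20 to 80% in NT embryos and 34.9% of tiles at 80% or more in both stages. Tiles of 4 or more CpGs made up 26.4% (97), against 22.1 and 34.7%. Single CpGs were thus less common among low-NT tiles than in either class. No low-NT tile had a density over 10 or more than 12 CpGs.

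Low-NT tiles were found on all 19 autosomes. The largest shares of a chromosome's tiles at 80% or more in fibroblasts were on chromosome 19 (16 tiles, 0.772%, 95% Wilson interval 0.476 to 1.25%), chromosome 11 (31 tiles, 0.737%, 0.519 to 1.04%) and chromosome 7 (39 tiles, 0.636%, 0.465 to 0.868%). The smallest were on chromosome 1 (15 tiles, 0.180%, 0.109 to 0.297%) and chromosome 3 (14 tiles, 0.192%, 0.115 to 0.322%). The intervals of chromosomes 7, 11 and 19 did not overlap those of chromosomes 1 and 3. On X, which the rule leaves out, 4 of 8917 tiles met the same bounds (0.0449%, 0.0174 to 0.115%). The fibroblast donors were male.

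They also lay nearer to CpG-dense unmethylated sequence, of the kind that CpG islands at promoters form. For 70521 autosomal tiles under 20% in fibroblasts with a density of 6 or more, the nearest was a median of 14950 bp from a low-NT tile, against 126100 bp from a tile at 20 to 80% in NT embryos and 201300 bp from a tile at 80% or more in both stages. Within 2000 bp were 36 low-NT tiles (9.78%), against 1.36 and 0.203% of these other classes. Even so, 219 low-NT tiles (59.5%) were over 10000 bp from any, so most did not border such sequence. With 20 calls or more in every sample the medians were 12100, 141600 and 214100 bp. These distances were defined after the data had been seen, and RRBS measures little sequence far from dense CpGs.

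The CpGs of a low-NT tile were described one by one. At least 2 CpGs with 5 or more calls in every sample were present in 157 of the 368 tiles, while 170 tiles had 1 such CpG and 41 had none. In 84 of the 157 tiles (53.5%, 95% Wilson interval 45.7 to 61.1%) every such CpG had a mean under 20% over the NT samples. The other 73 tiles held a CpG at 20% or more, and the highest CpG mean in any of the 157 was 38.0%. The median range between the highest and the lowest CpG of a tile was 7.92 points in NT embryos, against 11.1 points in 18676 tiles at 20 to 80% and 7.76 points in 17185 tiles at 80% or more. Since the rule holds the mean of a tile under 20%, these CpG levels are a description, and nothing is read from the absence of high ones.

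Single samples were more divided. Of the 628 pairs of a tile and an NT sample, all measured CpGs were under 20% in 386 and at 50% or more in 22, and 45 held CpGs on either side, with at least one under 20% and one at 50% or more. The remaining 175 were intermediate. The mixed cases numbered 12, 7, 18 and 8 in NT samples 1 to 4. The most common case was thus a sample with every CpG of the tile under 20%, then an intermediate one, and samples with a CpG at 50% or more beside a low one, or with all CpGs that high, were fewer.

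CpGs on the same measured stretch as a low-NT tile also had a lower median level in NT embryos than in fibroblasts, but most were not under 20% in NT embryos. In place of MspI fragments, whose ends need the mm9 genome, runs of CpGs with gaps of at most 50 bp and 5 or more calls in every sample were used. There were 327 runs with a CpG in a low-NT tile, and 39 of them reached past the tile, with 50 CpGs outside it. Over the NT samples 16 of these 50 CpGs (32.0%, 95% Wilson interval 20.8 to 45.8%) were under 20%, 22 were at 20 to under 40% and 12 at 40% or more, and their median was 26.6% in NT embryos and 84.8% in fibroblasts. Of the 31 among them at 80% or more in fibroblasts, 6 (19.4%) were under 20% in NT embryos and 4 were at 60% or more. In 8 of the 39 runs (20.5%) every CpG was under 20%. These 39 runs were short, with a median of 29 bp and a longest of 75 bp, so their CpGs can share reads with the tile. CpGs outside the tile that are themselves low enough would have made the next tile a low-NT tile, which takes the lowest ones out of this count.

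An example is the end of the tile on chromosome 10. Its 4 CpGs averaged 12.5 to 16.1% over the NT samples and the CpG at 79750898, just before it, 27.1%, the difference lying mainly in NT sample 1. On chromosome 16, adjoining low-NT tiles at 23165100 and 23165200 were at 3.45, 9.09, 0 and 0% and at 3.23, 30, 14.3 and 0% in NT samples, against 93.1, 88.0, 100 and 94.3% and 90, 97.4, 98.2 and 98.2% in fibroblast samples. The tile before them, at 23165000, averaged 40.3% ± 42.3 in NT embryos and 88.0% ± 6.36 in fibroblasts (SD, n = 4 each). Its CpGs were at 100% in NT sample 1 and 0% in NT sample 4, so the edge of the low stretch lay between these tiles in one sample and was not seen in the other.

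Around low-NT tiles, the CpGs methylated in fibroblasts were also lower in NT embryos than around other methylated tiles, out to the farthest distance looked at. Among CpGs at 80% or more in fibroblasts and outside low-NT tiles, the mean NT level was 39.9% ± 0.786 (SD, n = 4) at 1 to 50 bp from the tile's edge (58 CpGs), 54.8% ± 8.24 at 51 to 100 bp (50 CpGs), 49.3% ± 2.36 at 501 to 1000 bp (78 CpGs) and 53.9% ± 5.52 at 5001 to 10000 bp (264 CpGs). The same CpGs were at 88.9 to 90.1% in fibroblasts over all distances. Around tiles at 20 to 80% in NT embryos the NT means ran from 72.7 to 78.9%, and around tiles at 80% or more in both stages from 79.7 to 85.8%. The level did not reach that of the other classes within 10000 bp. The rule chose the inside of the tile for its low NT level and not the outside, so nothing is read from the step at the edge. The values are means over CpGs within a sample and carry no test of their own.

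**Figure D4:**
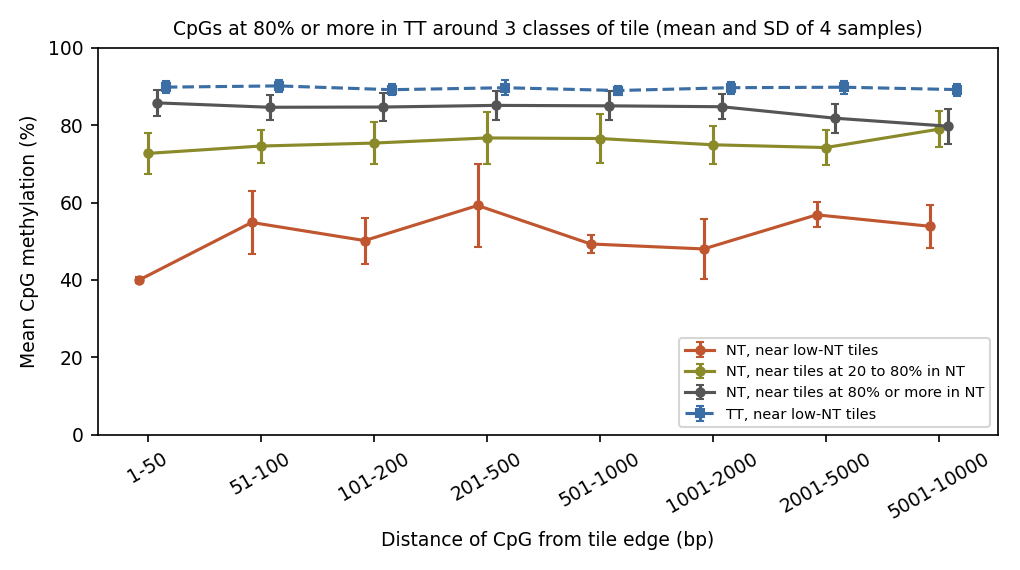
Mean methylation in percent (y axis) of CpGs at 80% or more in fibroblasts by distance in bp from the edge of a tile (x axis, classes of unequal width), for NT samples around 3 classes of tile and for fibroblast (TT) samples around low-NT tiles, with SD over 4 samples. NT levels near low-NT tiles lie between 39.9 and 59.2%, below 72.7 to 78.9% and 79.7 to 85.8% near the other classes and 88.9 to 90.1% in fibroblasts. CpGs under 80% in fibroblasts are left out, and near low-NT tiles 264 of 3110 CpGs are shown at 5001 to 10000 bp.

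Neighbouring tiles, which the rule did not choose, can be tested. Of the 368 low-NT tiles, 170 had another tested tile within 1000 bp and 198 had none, and the 170 gave 330 neighbours that were no low-NT tiles. Of these, 100 (30.3%) were called lower in NT embryos, against a background of 4.41% of all tested tiles (tile model, at an adjusted p under 0.05 with 20 points or more between stage means). None was called higher, where the background is 0.173%, with 3 higher and 213 lower at an unadjusted p under 0.05, and limma applied to arcsine-transformed levels called 53 lower and 0 higher, with 1 higher unadjusted. Of all tested tiles, 27.3% were at an unadjusted p under 0.05 for stage in either direction. In sign, 307 of the 330 were lower, as were 201610 of all 279699 tested tiles. Of the 31 neighbours on the same run of CpGs as a low-NT tile, which can share its reads, 17 were called (54.8%), and of the other 299, 83 (27.8%). Runs need CpGs with 5 or more calls in every sample, so some adjoining tiles among the 299 may share reads too. The count moved with single samples, and the share over all tiles moved with it. Leaving out fibroblast sample 1 gave 0 of 350 neighbours, with no tile at all called. Leaving out fibroblast samples 2, 3 and 4 gave 22, 42 and 37 neighbours, or 5.71, 12.4 and 11.7%, against 0.506, 1.15 and 1.203% of all tiles. Leaving out NT samples 1 to 4, which also changes the low-NT tiles, gave 113, 96, 297 and 290, or 18.9, 16.8, 33.4 and 31.5%, against 2.29, 2.26, 5.38 and 4.85%.

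Neighbours with a high fibroblast level were mostly intermediate in NT embryos. Of the 162 at 80% or more in fibroblasts, 159 were at 20 to 80% in NT embryos and 3 at 80% or more. Under 20% there were 0, as the rule would have chosen such tiles. Their median was 48.9% in NT embryos and 88.6% in fibroblasts, with a median difference of -39.8 points, and 80 of them (49.4%) were called lower, against a background of 7.72% of autosomal tiles at that fibroblast level. By distance, 36 of 88 neighbours (40.9%) were called at 100 bp, 35 of 96 (36.5%) at 200 to 300 bp, 4 of 34 (11.8%) at 400 to 500 bp and 25 of 112 (22.3%) at 600 to 1000 bp. Among those at 80% or more in fibroblasts, 29 of 54 (53.7%), 27 of 52 (51.9%), 3 of 16 (18.75%) and 21 of 40 (52.5%) were called. The called share at that fibroblast level was thus about the same at 600 to 1000 bp as at 100 bp. Of all neighbours, 59 (17.9%) were under 20% in fibroblasts, with a median NT level of 0.870%, and 52 of these lay at 600 to 1000 bp.

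The neighbours with the smallest change or the largest rise differed in how they related to their low-NT tile. On chromosome 8 the tile at 3398800 was at 95.2, 95.8, 86.0 and 100% in NT samples and 96.2, 90, 100 and 91.1% in fibroblast samples. The adjoining low-NT tile at 3398900 was at 22.5, 44.9, 0 and 0% in NT samples and 82.0, 81.8, 78.9 and 80.2% in fibroblast samples. In every NT sample the neighbour was far above the low-NT tile, while in fibroblasts both were high. On chromosome 12 the tile at 58884100, of 1 CpG, was at 0, 0, 73.75 and 100% in NT samples and 34.8, 50, 45.2 and 35.3% in fibroblast samples, so every fibroblast level lay inside the range of the NT levels. Its adjoining low-NT tile at 58884000 was at 0, 0, 72.8 and 0% in NT samples and 86.1, 100, 85.2 and 76.9% in fibroblast samples. NT samples 1 and 2 were thus at 0% and NT sample 3 high in both tiles, and NT sample 4 alone differed between them.

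Farther off, the tile on chromosome 19 at 6451800, 200 bp from a low-NT tile, was at 57.7, 43.3, 42.6 and 60% in NT samples and 28.2, 31.8, 31.1 and 37.3% in fibroblast samples. Each NT sample lay above each fibroblast sample, and the difference of 18.8 points was not called (tile model with limma-moderated dispersion: adjusted p = 0.0835). The low-NT tile itself, at 6451600, was at 33.3, 0, 44.4 and 0% in NT samples and 96.9, 65.0, 95.3 and 85.7% in fibroblast samples. On chromosome 5 the tile at 31262100, 1000 bp from the low-NT tile at 31263100, was at 42.9, 0, 0 and 5.50% in NT samples and at most 0.524% in any fibroblast sample.

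Joined within 1000 bp, the low-NT tiles formed 2 pairs, those on chromosomes 7 and 16 named above, and 364 single tiles. For 198 of the single tiles there was no tested tile within that distance to join. Of the 97 tiles with 4 or more CpGs, the spacing of the CpGs was found once in the covered genome for 48, 2 to 5 times for 18 and more often for 31, with up to 1632 occurrences. With 5 or more CpGs, 45 of 59 had a spacing found once. No spacing was shared by 2 low-NT tiles. Repeated sequence is one source of a spacing found many times, and whether repeats are among the tiles was not tested.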

How the data were processed

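The deposited files give, per library and CpG, the count of calls and of methylated calls, from RRBS of MspI-digested DNA per the labels' protocols. The build is mm9, per the submitters' processing notes; aligner, caller and filters: not given in the sources used here. CpG density is a score deposited by the authors. In the deposited tile file, 26 columns of per-sample values were not used. Fibroblast libraries 1 and 1a, a resequencing per the file descriptions deposited by the authors, were summed.

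Calls were summed in tiles of 100 bp. Each of 279699 tiles with at least 10 calls in all 8 samples entered a quasi-binomial logistic fit (calls on stage plus strain). The dispersion was moderated by squeezeVar (limma 3.58.1, R 4.3.3), with a floor of 1, and F test p-values were adjusted over all tiles (Benjamini-Hochberg). Stage calls also needed 20 points between mean sample levels. The software was scipy 1.17.1, pandas 2.3.3 and numpy 2.4.6 under Python 3.11.15. The model was also run on simulated data with an even fall over the NT samples, unlike the uneven NT levels of the low-NT tiles. No result of that run is given here and nothing is read from it. CpGs were described at 5 or more calls in every sample.

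The members and lists were chosen with earlier results of these data known. Tiles are named where they were the 10 largest falls among well-read tiles, pairs of members, nearest to a bound, most different between strain labels, or the most contrary of the neighbours. The distance to unmethylated sequence, the CpG spacing and the left-out NT sample were added after the data had been seen.

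Alternatives covered the call minimum, bounds, tile offset, libraries, left-out samples, neighbour distance, pairing and limma. Genes, MspI fragments and sequences were not analysed here, as no mm9 reference was used.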

Additional observations from a re-analysis of the deposited data

Results flagged for a closer look

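Groups of 4 values were looked at for a sample set apart from the other 3 by a gap that is large against the range of the group. The 62 groups were the named tiles and neighbours in each stage, with summaries per sample over all low-NT tiles. These summaries were the median, the mean and the counts at 0% and under 20%. Found were 8, all in named tiles or neighbours, where chance at 1 in 20 gives 3.1 over the 62 groups. That rate need not hold where the other values are at or near 0%, and many tiles were named for being close to a bound.

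In 6 of the 8 the sample set apart was the highest NT sample. NT sample 2 was at 16.3% in tile 120782000 on chromosome 11, with the other 3 at 0%. It was at 56.25% in tile 79750900 on chromosome 10, with the others between 0 and 1.45%. It was at 78.0% in tile 114392500 on chromosome 5, with the others at 0%, and at 70% in tile 129140000 on chromosome 4, just outside the NT bound, with the others between 0 and 10.0% and 10 calls behind the high value. NT sample 3 was at 56.1% in tile 78544500 on chromosome 15, just outside the fibroblast bound, with the others between 0 and 3.70%. NT sample 1 was at 42.9% in the neighbour at 31262100 on chromosome 5, with the others between 0 and 5.50%.

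The other 2 were fibroblast samples. Sample 1 was at 90% in tile 23165200 on chromosome 16, with the others between 97.4 and 98.2%, and sample 4 was at 91.6% in tile 94976800 on chromosome 3, with the others between 75 and 77.7%.

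In the neighbour at 58884100 on chromosome 12, both NT samples of X1 lay above the fibroblasts of their strain label and both of BDF1-CAST below. The change was 46.6 points in X1 and -42.4 points in BDF1-CAST, which differ by 89.0 points. The product of stage and strain did not pass at this tile (tile model with limma-moderated dispersion: adjusted p = 0.273), and the tile was singled out for its contrast.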

How the results depend on the processing

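The number of low-NT tiles followed the settings. It was 808 at 5 calls, 107 at 20 calls, 35 with bounds of 90 and 10%, 2174 with bounds of 70 and 30% and 29 with every sample past the bounds, and ran from 357 to 965 without single samples, with 627, 680, 965 and 925 without NT samples 1 to 4, where 10 calls were asked of the other 7. Calls summed over a stage gave 351 tiles, of which 241 were among the 368, and tiles shifted by 50 bp gave 383, of which 272 overlapped them. Neighbours called lower numbered 287 of 879 (32.7%, against 5.49% of all tiles) at 5 calls, 21 of 65 (32.3%, against 3.06%) at 20 calls and 53 of 330 (16.1%, against 2.44%) with limma applied to arcsine-transformed levels, and ran from 0 to 297 without single samples. With the replicate number as a block in place of strain, 0 of 330 were called, as were 0 of all tiles, with 171 neighbours lower at an unadjusted p under 0.05. No source says that the numbers pair the samples. Deviations of same-numbered samples from their strain means correlated at -0.0276 in BDF1-CAST and 0.00634 in X1. With 2 samples per strain and stage such deviations mirror each other, so each strain gives a single value. Deviations from the stage means, which also hold the difference between strains, correlated at 0.0994, 0.0948, 0.161 and 0.0341 for numbers 1 to 4. These values do not settle whether the samples are paired, and the 0 calls with the block stand as a limit. With a CpG bound of 30%, 91.1% of tiles were low at every CpG. The causes of these shifts were not tested. The shares of outside CpGs, of held-out tiles, of density 3 to under 4 and near unmethylated sequence stayed within their intervals in each setting run. Strain and interaction counts were 0 in each setting run. Depth limits all of this: at 10 calls a level of 50% has a 95% Wilson interval of 23.7 to 76.3%.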
